A study of Mus musculus with 5 samples.

Results

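Regulatory-like T cells were cells that carried transcripts of the CD3 complex together with the markers of regulatory T cells. A cell was counted when it held 1000 to 27500 gene UMIs (unique molecular identifiers, 1 for each captured transcript), at most 20% mitochondrial UMIs, and at least 1 UMI of Cd3d, Cd3e or Cd3g. It also had to hold either a Foxp3 UMI or UMIs of both Il2ra and Ctla4, with no Cd8a, Cd8b1 or Gzmc and at most 3 keratin UMIs (Krt8 and Krt18 summed). This rule found 88 of the 25751 cells that passed the limits on UMIs and mitochondrial share (0.342%), among 30340 deposited cells. They made up 1.83% of the 4816 cells with a Cd3 UMI and at most 3 keratin UMIs, which are called Cd3+ cells below.

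All tumors came from female FVB mice carrying MMTV-PyMT, a transgene that places polyoma middle T under the MMTV promoter, which is active mainly in mammary epithelium, so that carcinomas arise spontaneously. The controls carried the same transgene and were given isotype IgG2a (6 tumors). The treated mice were given B20-4.1.1, abbreviated B20, an antibody against VEGF-A (9 tumors), and both antibodies were injected at 5 mg/kg from 7 weeks of age for 6 weeks. Viable sorted cells were profiled by droplet single-cell RNA sequencing in 5 pools of 3 tumors, and because no pool mixed treatments, pool and treatment cannot be told apart.

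Regulatory T cells are CD4 T cells that restrain other lymphocytes. Their lineage factor is FOXP3, they carry IL2RA, the alpha chain of the high-affinity IL-2 receptor, and they carry CTLA4, a receptor that competes for the costimulatory ligands of antigen-presenting cells. In tumors they commonly express receptors of the TNF receptor family such as OX40 (Tnfrsf4) and GITR (Tnfrsf18), and in mammary carcinoma they are part of the lymphocyte infiltrate.

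The deposited matrices held 4014509 to 23726246 gene UMIs per tumor. The members had a median of 3337 UMIs per cell (1085 to 16410), against 3156 in 743 other Cd4+ cells, which were chosen by the same limits with a Cd4 UMI and without meeting the marker requirement. Only 3 members held over 10000 UMIs. No doublet caller was run, 94 cell barcodes occurred in more than 1 tumor but none of them belonged to a member, and the multiplexing oligonucleotides of the assigned tumor led in 88 of 88 members.

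A set of 3 B20 tumors stood apart before any result. Cd3+ cells made up 67.3% of the cells in QAG357, 74.3% in QAG359 and 74.0% in QAG365, against 5.45% to 25.8% in the other 12 tumors. The same 3 tumors held B-lineage cells (Cd79a and Ms4a1 both detected) at 9.53%, 5.32% and 5.45% of cells, against at most 0.344% elsewhere. They also held 56 of the 88 members (63.6%), so the main counts are given with and without them where both could be computed. What sets these tumors apart was not tested.

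Foxp3 (chrX:7573644-7595245, GRCm38, plus strand) was detected in 63 members, of which 40 carried 1 UMI, 14 carried 2 and 9 carried 3 or more. Another 25 members entered through Il2ra and Ctla4 without Foxp3, and 19 met both requirements. In cells that should lack it, 6 of 13498 Cd3-negative keratin-high cells held a Foxp3 UMI (0.0445%, median 8346.5 UMIs per cell). These 3 genes chose the cells and are given as a description only. Cd4 itself was detected in 39 of 88 members (44.3%).

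Among markers of other cell types, the 2 Cd8 genes were at 0 by the rule, and 4 of 6 gamma-delta genes, 5 of 6 dendritic cell genes and 4 of 5 fibroblast genes had no UMI in the members. The 8 macrophage markers together held 63 UMIs in the members, and Csf1r and Adgre1 were at 0. Epithelial markers held 306 UMIs in 68 members, of which 239 were of Spp1, and 147 of these Spp1 UMIs lay in the single member of QAG465. Macrophage markers stood at 1.77 UMIs per 10000 gene UMIs in members and 33.0 in other Cd4+ cells, epithelial markers at 8.58 and 5.45, and T cell markers at 68.4 and 70.8. The part of other cell types in the results below was not tested except where it is stated.

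Partner genes that the rule did not use were shared by members of both routes. The 4 genes Ikzf2 (the factor Helios), Tnfrsf4, Tnfrsf18 and Izumo1r (also named folate receptor 4) were counted in every cell. They were picked after their values were seen, so their contrast with other Cd4+ cells is a description only. At least 2 of the 4 were detected in 71 of 88 members (80.7%) and in 68 of 743 other Cd4+ cells (9.15%), and none was detected in 3 members. The share was 51 of 63 (81.0%) in members with Foxp3 and 20 of 25 (80.0%) in members without it. In Cd3-negative keratin-high cells, a UMI of these genes was found in 7.30% for Ikzf2, 0.459% for Tnfrsf4, 7.47% for Tnfrsf18 and 0.0667% for Izumo1r. Ikzf2 was not confined to the members among T cells, since 391 of 1597 Cd3+ cells with a Cd8a or Cd8b1 UMI held it (24.5%).

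Cells just inside and just outside the rule differed in these genes. Ikzf2 was detected in 69.7% of 33 members with 1 Foxp3 UMI and not both other markers, in 63.6% of 11 with 2 or more, in 94.7% of 19 with all 3 markers and in 68.0% of 25 with Il2ra and Ctla4 alone. Outside the rule it was detected in 32.8% of 67 cells with Il2ra alone, in 22.1% of 140 with Ctla4 alone and in 12.3% of 2713 with none of the 3. Cells with Ctla4 alone were intermediate for Tnfrsf4 (30.0%) and Izumo1r (30.0%), while cells with Il2ra alone were at 11.9% and 10.4%. A further 18 Foxp3+ cells within the depth limits were left out, 9 for lack of Cd3, 4 for keratin, 3 for Cd8 and 2 for Gzmc. No test was applied, since the rule itself separates these groups.

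**Figure D1:**
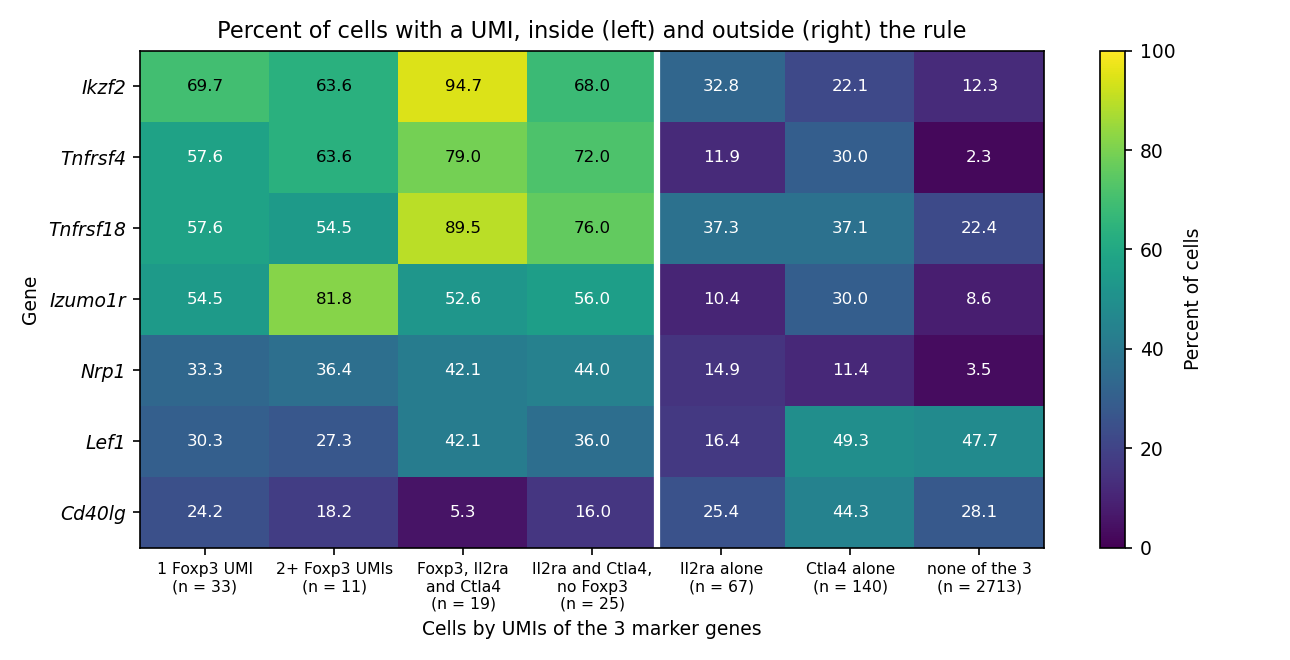
Percent of cells with at least 1 UMI of each of 7 genes (rows), in 4 groups of cells inside the rule (left of the white line) and 3 groups outside it (right), with the number of cells under each column. Ikzf2 lies between 63.6% and 94.7% inside and between 12.3% and 32.8% outside, and Cd40lg and Lef1 do not follow the same order.

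Numbers of members were compared between treatments to ask whether blocking VEGF-A goes with more or fewer regulatory-like cells. Per tumor, isotype samples held 1, 3, 3, 4, 3 and 1 members. The B20 tumors held 2, 3 and 31 members in pool 1 (QAG348, QAG356 and QAG357), 10, 4 and 15 in pool 2 (QAG359, QAG360 and QAG365), and 0, 0 and 8 in pool 3 (QAG370, QAG372 and QAG373). Among the 15 tumors, 2 thus held none, where a count of 0 allows up to 0.233% of cells in QAG370 and 0.327% in QAG372 by the limit of 3 counts, and up to 0.286% and 0.401% by the 2-sided exact 95% interval that the plot of shares draws.

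As a share of all cells, members were at 0.040%, 0.0913%, 0.107%, 0.189%, 0.206% and 0.0380% in the isotype tumors (QAG364, QAG397, QAG404, QAG432, QAG452 and QAG465). In B20 tumors the lowest was 0%, the median 0.458% and the highest 1.70%. The groups overlapped, although 6 of 9 B20 tumors lay above the highest isotype tumor. The means were 0.112% ± 0.0718 (SD, n = 6) and 0.626% ± 0.630 (n = 9), a difference of 0.514 percentage points (2-sided exact permutation over 5005 splits, p = 0.0689, adjusted p = 0.138 over both shares). It was 0.328 points without pool 2 of B20 and 0.121 points without the 3 T cell-rich tumors (exact permutation p = 0.277). With pools as the units the exact p was 0.2, where 0.1 is the smallest that 10 splits can give.

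As a share of Cd3+ cells the difference was smaller relative to its spread. The isotype tumors were at 0.641%, 1.43%, 1.52%, 1.47%, 1.3% and 0.412%, and the B20 tumors ranged from 0% through a median of 1.63% to 8.00%. The means were 1.13% ± 0.477 (SD, n = 6) and 2.08% ± 2.37 (n = 9), which did not differ beyond their spread (difference 0.951 points, exact permutation p = 0.456). Here too 6 of 9 B20 tumors lay above the highest isotype tumor. The highest value was QAG373, with 8 of 100 Cd3+ cells (exact 95% interval 3.52% to 15.2%), and the next was QAG357 at 2.52%. Without QAG373 the difference was 0.211 points.

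The sizes of the differences moved with depth and with the third B20 pool. When every cell was thinned to 1000 UMIs before the rule was applied, 39 members remained and the differences were 0.239 points of all cells and 0.630 points of Cd3+ cells (exact permutation p = 0.0651 and 0.330). No cell was lost to thinning, since all held at least 1000 UMIs. With a minimum of 2500 UMIs, 61 members remained and the differences were 0.463 points of all cells and 0.0410 points of Cd3+ cells (exact permutation p = 0.115 and 0.973). Without pool 3 of B20, which held both tumors with no member, the differences were 0.734 and 0.657 points and both passed the threshold (exact permutation, adjusted p = 0.00866). The intervals of single tumors cover counting error only.

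**Figure D2:**
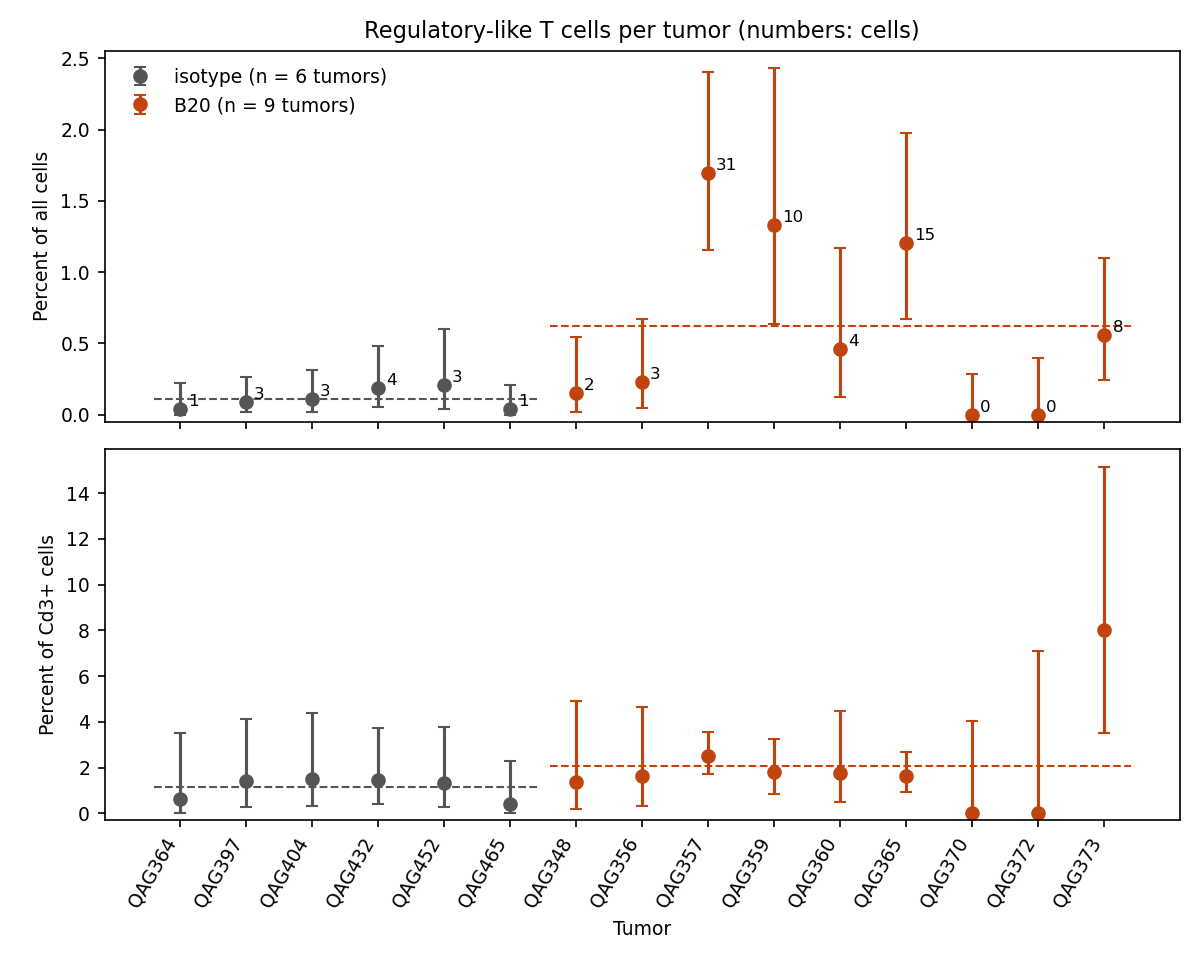
Regulatory-like cells as a percent of all cells (top) and of Cd3+ cells (bottom) in each of 15 tumors, gray for isotype (n = 6) and orange for B20 (n = 9), with exact 95% binomial intervals, group means as dashed lines and the number of members beside each point. The 3 T cell-rich tumors reach 1.20% to 1.70% of all cells, but only 1.63% to 2.52% of Cd3+ cells, where QAG373 is highest at 8.00%.

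The members were then compared with other Cd4+ cells of the same tumors, to describe which genes go with the marker rule. UMIs were summed per tumor and class and tested with edgeR's quasi-likelihood test with the tumor as a block and Benjamini-Hochberg adjustment. Only QAG357, QAG359 and QAG365 held 10 or more members, so this comparison rests on 56 members and 633 other Cd4+ cells of 3 B20 tumors, all of them T cell-rich. Of 4139 genes tested, 145 passed an adjusted p of 0.05 (3.5%), 65 higher (1.57%) and 80 lower (1.93%) in the members, with a median log2 fold change of -0.05 over all genes. Levels below are UMIs per 10000 gene UMIs, and log2 fold changes are given ± SE. This SE is approximate, the size of the log2 fold change divided by the square root of the test's F statistic. Genes that chose either class were not tested. The low-count filter asked for enough counts in as many sums as either class held. A gene could therefore enter through the class where it was high while sparse in the other, as Ikzf4, Nrp1 and Gpr83 did. For such genes the filter favored the direction found, so counts of tested genes called higher or lower were partly set by it.

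The transcription factors of the regulatory lineage were led by Ikzf2, which stabilizes the regulatory program (chr1:69531214-69687245, GRCm38, minus strand). Its level was 10.2, 4.73 and 11.2 in members of QAG357, QAG359 and QAG365, and 0.397, 0.169 and 0.261 in other Cd4+ cells. All 3 tumors were higher in the members, by a log2 fold change of 4.80 ± 0.26 (edgeR adjusted p = 3.9e-27). Ikzf4 (the factor Eos) was at 0.570, 1.31 and 1.72 against 0.0601, 0.0508 and 0.0373 (4.22 ± 0.62, edgeR adjusted p = 2.8e-07). Maf, a factor of effector regulatory and helper cells, was at 3.14, 0 and 0.431 against 0.385, 0.372 and 0.249. Its log2 fold change of 1.87 (edgeR adjusted p = 0.0092) rested on QAG357 and was -0.52 without that tumor. Of the 10 genes listed, 6 were tested and 3 were higher. The median log2 fold change of the 6 was 1.19. Batf, a factor of effector differentiation, did not pass (0.51 ± 0.55).

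Receptors of the TNF receptor family and costimulatory receptors formed the next group, with 3 of 6 tested members higher, none lower and a median log2 fold change of 1.28. Tnfrsf4, the receptor OX40, was at 4.28, 2.89 and 4.95 in the members of the 3 tumors and at 0.180, 0.355 and 0.162 in other Cd4+ cells (4.06 ± 0.34, edgeR adjusted p = 1.8e-16). Tnfrsf18, the receptor GITR and a chromosomal neighbor of Tnfrsf4 on chromosome 4, was at 3.23, 3.94 and 2.80 against 0.734, 1.08 and 0.833 (1.79 ± 0.28, edgeR adjusted p = 1.2e-06). Both were higher in each of the 3 tumors. Icos, a costimulator related to CD28, was at 3.52, 0.525 and 1.94 against 0.505, 0.457 and 0.672. The change of Icos (1.90 ± 0.35, edgeR adjusted p = 5.5e-05) was 0.97 and did not pass without QAG357.

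Surface molecules of the inhibitory and suppressive lists were mostly too sparse to test. Of the 8 genes of the inhibitory list, none such as Tigit or Lag3 could be tested, only Izumo1r, also named folate receptor 4. It was at 5.99, 5.51 and 5.81 in the members and at 0.926, 1.07 and 1.02 in other Cd4+ cells, with little spread between tumors (2.39 ± 0.24, edgeR adjusted p = 9.8e-13). Nrp1, a coreceptor of semaphorins and VEGF that is found on thymus-derived regulatory cells, was at 1.33, 1.05 and 1.51 against 0.0601, 0.0169 and 0.0249 (4.89 ± 0.60, edgeR adjusted p = 1.8e-09). Tgfb1, the other suppressive gene tested, was at -0.19 ± 0.48. In all 88 members there was 1 UMI of Il10, 1 of Ccr8, 4 of Tigit, 2 of Lag3 and none of Havcr2, so these genes were not detectable as differences at this depth.

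In the IL-2 pathway, 2 of 6 tested genes were higher and none lower, with a median of 0.87. Il2rb, the beta chain of the IL-2 receptor, was at 2.19, 2.36 and 2.37 in the members and at 0.229, 0.372 and 0.224 in other Cd4+ cells (2.96 ± 0.41, edgeR adjusted p = 5.6e-08). Cish, a feedback inhibitor induced by STAT5, was at 0.380, 1.05 and 1.51 against 0.240, 0.135 and 0.199 (1.91 ± 0.57, edgeR adjusted p = 0.039), and did not pass without QAG359 (1.62) or QAG365 (1.38). Il2rg, the common gamma chain, did not pass (-0.38 ± 0.28). Over all tumors and with no Cd4 UMI required, Il2rb was at 2.35 in cells with Il2ra alone and at 1.27 in cells with none of the 3 markers. Members split by marker stood at 2.02 to 3.46. In the 7 other tumors described below, 0 of the 6 genes passed as higher and 1 as lower.

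Of the 12 genes listed for tissue residence and effector homing, only Capg, S100a4 and Gpr83 could be tested, and all 3 were higher. Gpr83 entered through the members, so its direction was favored by the filter. Ccr8, Klrg1, Il1rl1, Itgae, Cxcr6 and Ccr2 of that list were not tested. In these tumors Il1rl1 or Klrg1 was found in only 4 of 56 members and in 1 of 633 other Cd4+ cells. Capg, an actin-capping protein, was at 4.56, 3.15 and 3.44 in the members and at 0.445, 0.660 and 0.361 in other Cd4+ cells (2.87 ± 0.30, edgeR adjusted p = 2.9e-12). S100a4, a calcium-binding protein of motile and memory cells, was at 5.80, 5.78 and 0.431 against 0.457, 2.25 and 0.261 (2.23 ± 0.30, edgeR adjusted p = 2.9e-08), and without QAG357 it was at 1.11 and did not pass. Gpr83, a G protein-coupled receptor of regulatory cells, was at 0.760, 3.15 and 0.861 against 0.0962, 0.203 and 0.0871 (3.30 ± 0.52, edgeR adjusted p = 1.9e-06).

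Outside the lists, the named-gene rule added Itgb1, Hopx, Cmtm7 and Pou2f2 among higher genes. Itgb1, the beta-1 integrin, was at 5.61, 2.89 and 4.95 against 0.746, 0.914 and 0.697 (2.44 ± 0.26, edgeR adjusted p = 1.3e-11). Hopx, a small homeodomain protein that has been linked to induced regulatory cells, changed by 2.73 ± 0.39. Cmtm7 changed by 2.81 ± 0.51 (1.71 without QAG357, which did not pass), and Pou2f2, the lymphoid factor OCT2, by 2.35 ± 0.47. Ifi27l2a, the only interferon-stimulated gene called of 5 tested, was at 19.0, 16.8 and 11.6 in the members and at 9.64, 5.03 and 4.45 in other Cd4+ cells (1.18 ± 0.16, edgeR adjusted p = 6.9e-08).

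Genes of naive and lymph node-homing T cells were lower. All 10 listed genes were tested, 6 passed as lower and none as higher, and the median log2 fold change was -1.12. Igfbp4 was at 0.190, 0 and 0.215 in the members and at 2.02, 1.79 and 2.19 in other Cd4+ cells (-3.80 ± 0.54, edgeR adjusted p = 1.3e-07). Dapl1, a gene of quiescent naive T cells, was at 0.190, 0.263 and 0.646 against 3.45, 3.33 and 3.47 (-3.55 ± 0.42, edgeR adjusted p = 5.0e-10). For these 2 genes each tumor was lower in the members by a wide margin. Il7r, the receptor for the survival cytokine IL-7, was at 1.61, 1.31 and 3.44 against 5.42, 5.40 and 5.03 (-1.52 ± 0.26), and with tumors of at least 3 members it was -1.0 and did not pass. The chromatin organizer Satb1 fell to 1.61, 1.84 and 3.44 from 4.81, 4.3 and 6.02 (-1.37 ± 0.25).

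The TCF family members of the naive list depended more on a single tumor. Lef1 was at 1.33, 4.46 and 3.66 against 6.01, 6.11 and 6.27 (-1.32 ± 0.25), and was -0.79 and did not pass without QAG357. Tcf7 was at 1.14, 3.68 and 1.94 against 3.28, 3.06 and 3.73, higher in the members of QAG359 (-0.93 ± 0.29, edgeR adjusted p = 0.048, and -0.49 without QAG357). Ccr7, the chemokine receptor for lymph node entry, did not pass (-0.17 ± 0.26).

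Cd40lg, the helper ligand that activates B cells and dendritic cells, was the only tested gene of 10 in the helper effector list. It was at 0.380, 1.57 and 1.08 in the members and at 2.69, 2.23 and 3.57 in other Cd4+ cells (-1.92 ± 0.36, edgeR adjusted p = 7.3e-05), and without QAG357 it was -1.34 and did not pass. Rflnb was also lower (-3.46 ± 0.58). Dennd2d was at -3.66 ± 0.96, but did not pass when any of the 3 tumors was left out, and it was at -0.71 in the 7 other tumors described below. Another 6 lower genes had no UMI in the 56 members, which against a floor of 3 counts makes Vipr1 at least 3.01-fold lower, Tdrp 2.79, Calcrl 2.70, Ipo7 2.59, Sema4a 2.33 and Dctn5 2.30. These 6 did not pass under DESeq2, with a minimum of 2500 UMIs, without QAG357 or without QAG365. In the 7 other tumors none of them passed, Calcrl (0.48) and Dctn5 (0.38) had the opposite sign, and members of all tumors held 5 UMIs of Calcrl, 8 of Dctn5 and 8 of Ipo7.

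Ribosomal protein genes, a group picked after the values were seen, made up 32 of the 80 lower genes. Of 86 tested, 32 were lower, none was higher and the median was -0.34. Macrophage transcripts moved with the class as well. Apoe and Lyz2 were lower (-1.52 and -3.33), and they lay mainly in other Cd4+ cells of QAG359, at 9.63 and 3.47 against 0.788 and 0.525 in its members. Without QAG359 neither passed, with Apoe at -0.36 (edgeR adjusted p = 0.878) and Lyz2 at -6.97 (edgeR adjusted p = 0.146). A UMI of Csf1r, Adgre1 or a C1q gene was found in 99 of 743 other Cd4+ cells and in 11 of 88 members. When these cells were left out, 131 genes passed, Apoe was at -0.12 and 29 of 31 named genes that could be tested still passed.

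The lists for T cell receptor response (6 of 10 tested, median 0.33), hypoxia and glycolysis (7 of 12, median 0.30), NF-kB and survival (6 of 8, median 0.52) and cell cycle (1 of 10) gave no call in either direction. Ldha, the lactate dehydrogenase of glycolysis, was at -0.21 ± 0.22, Pgk1 at 0.30 ± 0.35, Nr4a1 at 0.43 ± 0.59, and Nfkb1 and Rel at 0.06 ± 0.37 and 0.41 ± 0.38. Trac, the T cell receptor alpha constant chain, was lower at -0.84 ± 0.19 in these tumors, but it was 0.02 when tumors with at least 3 members were used.

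**Figure D3:**
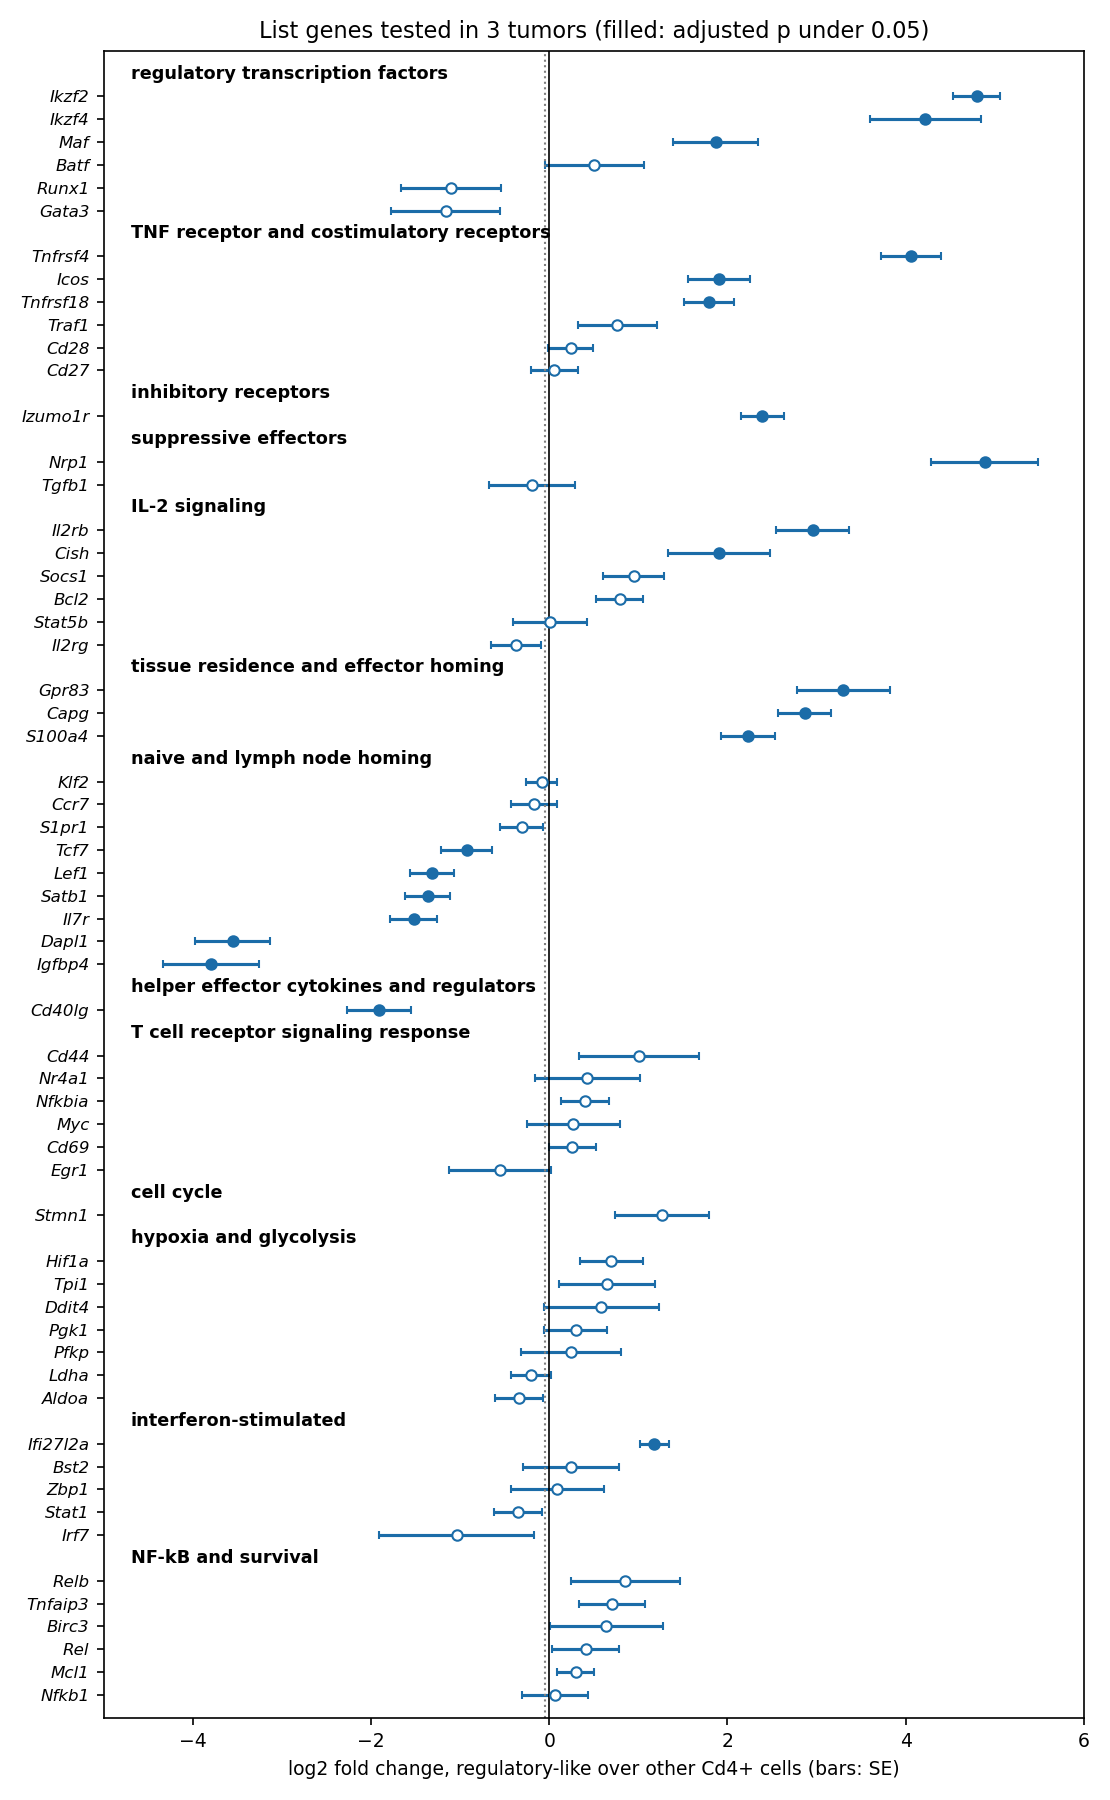
Log2 fold change of regulatory-like over other Cd4+ cells for the tested genes of the lists that are reported here, in QAG357, QAG359 and QAG365, with SE bars, filled points for an edgeR adjusted p under 0.05 and a dotted line at the median of all tested genes (-0.05). Ikzf2, Ikzf4, Tnfrsf4 and Nrp1 exceed 4, while 6 naive and lymph node-homing genes are filled on the lower side.

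The 7 other tumors with at least 3 members, 4 isotype and 3 B20, gave values that the 3 tumors had no part in. On the same 4139 genes 99 passed there (2.39%), 20 higher (0.483%) and 79 lower (1.91%), with a median of -0.22 over all genes. Of all 4139 genes, 1594 had a positive and 2545 a negative sign there, so a lower sign was the more common. Of the 65 genes higher in the first 3 tumors, 53 had the same sign and 14 also passed. Of the 80 lower genes, 73 had the same sign and 40 passed, and none of the 145 passed in the opposite direction. Among the 32 lower ribosomal protein genes the sign was the same in 32 and 25 passed, and among the 48 others it was the same in 41 and 15 passed.

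Of the leading genes, Ikzf2, Tnfrsf18 and S100a4 were close to their values in the first 3 tumors. Ikzf2 was at 5.19 ± 0.50 (edgeR adjusted p = 3.1e-22), Tnfrsf18 at 2.12 ± 0.43 and S100a4 at 2.72 ± 0.28 (edgeR adjusted p = 2.2e-19). The sign was kept but the size differed for Tnfrsf4 (2.11 ± 0.47 against 4.06), Capg (1.43 ± 0.39 against 2.87) and Satb1 (-5.08 ± 0.78 against -1.37). Ikzf4 was at 3.47 ± 1.03, Cd40lg at -3.11 ± 0.65 and Dapl1 at -4.37 ± 1.24, and these 9 genes passed. Others did not pass. Itgb1 was at -0.50 ± 0.35 and Gpr83 at -1.10 ± 1.38, and Izumo1r (2.02 ± 0.77), Nrp1 (0.88 ± 0.61), Icos (0.97 ± 0.39) and Il2rb (1.33 ± 0.49) did not pass. Gpr83 had no UMI in the members of these 7 tumors. The macrophage genes were lower here too, Apoe by -6.14 and Lyz2 by -4.16.

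With all 10 tumors in 1 fit, a version chosen after the cell counts were known, fewer genes were high enough to test. Of 309 genes, 73 passed (23.6%), 37 higher (12%) and 36 lower (11.7%). Without the T cell-rich tumors 57 of 214 genes passed, 32 higher and 25 lower. The filter kept mainly abundant genes, so these shares cannot be set beside those of the 3 tumors. Across the 10 tumors, Ikzf2 was at 4.73 to 20.6 in members and at 0 to 1.10 in other Cd4+ cells. Capg was at 3.12 to 14.6 against 0.361 to 2.75, and Tnfrsf18 at 2.80 to 9.09 against 0 to 2.20. Tnfrsf4 was higher in the members of 9 tumors and lower in QAG373, at 5.05 against 5.50 in its 7 other Cd4+ cells.

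The named genes of the 10-tumor fit were led by Ikzf2 (5.15 ± 0.27) and S100a4. S100a4 was at 0.431 to 45.9 in the members with a median of 22.6, and at 0.261 to 9.39 with a median of 2.40 in other Cd4+ cells (2.81 ± 0.33, edgeR adjusted p = 2.0e-05). S100a6 (2.32 ± 0.39), S100a10 (1.83 ± 0.27), S100a11 (1.46 ± 0.25), Vim (vimentin, 1.83 ± 0.29) and Lgals1 (galectin-1, 1.36 ± 0.35) were higher as well, and so was Hmgb2 (1.40 ± 0.37), a chromatin protein abundant in dividing cells. S100a4, S100a10 and Vim were higher in the members of 10 of 10 tumors. On the lower side stood Slfn2 (-1.02 ± 0.28) and Btg1 (-0.75 ± 0.25), both associated with quiescence, with Hcst (-0.70 ± 0.18), Malat1 (-0.64 ± 0.18), Tpt1 (-0.39 ± 0.12), Fau (-0.34 ± 0.09) and Eef1a1 (-0.27 ± 0.09). The direction of Eef1a1 turned when cells were thinned to 1000 UMIs (0.047), and Eef1a1 (-0.33) and Tpt1 (-0.32) did not pass without the T cell-rich tumors.

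**Figure D4:**
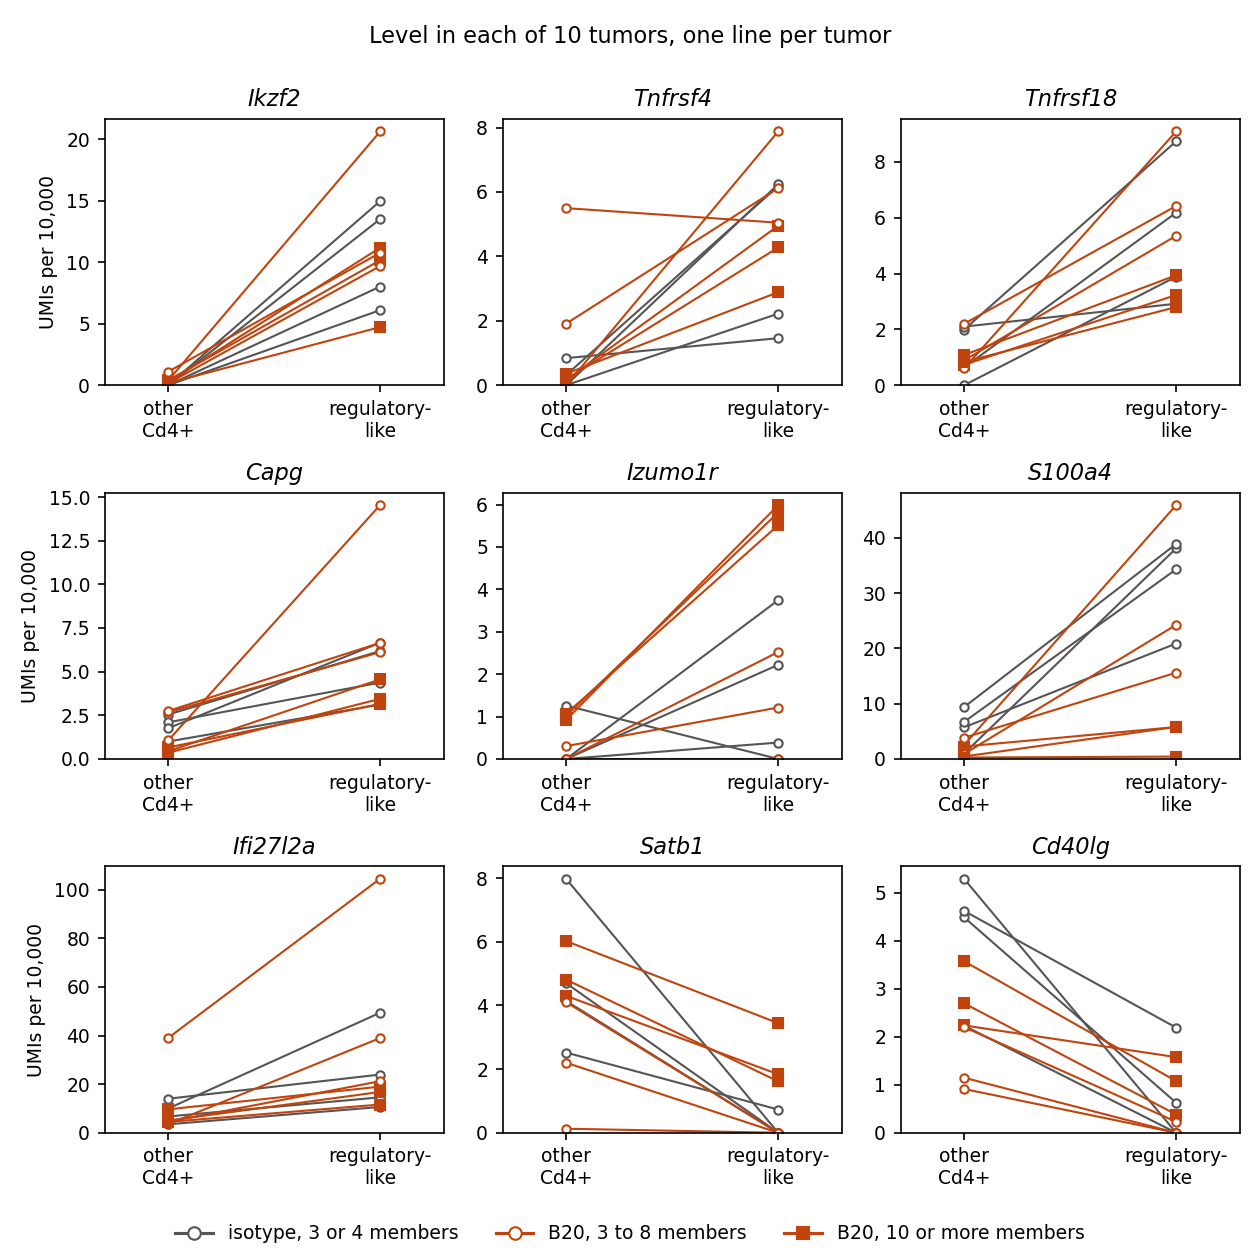
Level of 9 genes, in UMIs per 10000, in other Cd4+ cells (left) and regulatory-like cells (right) of each of 10 tumors with at least 3 members, 1 line per tumor, gray for isotype, orange for B20, filled squares for the 3 tumors with 10 or more members. Ikzf2, Capg and Tnfrsf18 are higher and Satb1 and Cd40lg lower in the members of 10 of 10 tumors, and S100a4 ranges from 0.431 to 45.9 among the members.

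Treatment was compared within the members, to ask whether their transcripts differed between isotype and B20. No isotype tumor held 10 members, so the comparison used the 10 tumors with at least 3, 4 isotype (13 members) and 6 B20 (71 members). Of 295 genes tested none passed an adjusted p of 0.05 with edgeR (0%), 19 had an unadjusted p under 0.05, and the lowest adjusted p was 0.561. DESeq2 called none as well, with 20 at an unadjusted p under 0.05. Without the T cell-rich tumors edgeR called 0 of 229 genes, with 4 at an unadjusted p under 0.05. The genes of the regulatory program that could be tested showed no difference beyond the spread. Ikzf2 was at 13.5, 15.0, 8.03 and 6.11 in the isotype tumors and at 4.73 to 20.6 with a median of 10.5 in B20 tumors (-0.09 ± 0.40). Tnfrsf4 was at 6.18, 6.24, 1.46 and 2.22 against 2.89 to 7.88 with a median of 5.00 (0.14 ± 0.45). Tnfrsf18 was at -0.27 ± 0.43, and among genes chosen after their values were seen Icos was at -0.23 ± 0.59 and Capg at 0.12 ± 0.46.

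The 5 genes with the smallest p missed the threshold. They were mt-Nd1, a subunit of mitochondrial complex I (-1.0 ± 0.29), Rpl36 (0.71 ± 0.22), Laptm5, a lysosomal protein of blood cells (-0.98 ± 0.32), Rps7 (1.36 ± 0.45) and mt-Co3, a subunit of cytochrome oxidase (-0.93 ± 0.32), each with an edgeR adjusted p of 0.561. Rpl36 was at 18.6, 28.1, 31.4 and 30.0 in the isotype tumors and at 32.3 to 57.8 in B20 tumors. S100a4, chosen after its values were seen, was at 20.9, 38.1, 34.3 and 38.9 in isotype tumors, while the B20 tumors ranged from 0.431 to 45.9 (-1.17 ± 0.73). Ldha was at 9.27, 6.87, 2.92 and 6.66 against 3.23 to 11.7 (-0.05 ± 0.44). Of the lists of T cell function, 3 regulatory transcription factors, 3 costimulatory receptors, 2 genes each of tissue residence, T cell receptor response and glycolysis, and 1 gene each of the naive, interferon and NF-kB lists reached the filter. None of these genes was called, nor were 3 T cell markers and 67 ribosomal protein genes.

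Whether a treatment difference in the members differed from that in other Cd4+ cells was tested as a class by treatment term in the same 10 tumors. Of 528 genes none passed with edgeR (0%), 34 had an unadjusted p under 0.05, and DESeq2 called none with 29 at an unadjusted p under 0.05. Without the T cell-rich tumors 1 of 325 genes passed (Cd74, named after its value was seen). The smallest p values belonged to Rpl36 (0.73 ± 0.20), Icos (1.94 ± 0.59), Actb (-0.89 ± 0.28), Ms4a6b (1.60 ± 0.53) and Prkar1a (-1.31 ± 0.45), each with an edgeR adjusted p of 0.636. Ikzf2 was at -5.32 ± 2.03 and did not pass (edgeR adjusted p = 0.689). No other Cd4+ cell of the isotype tumors QAG397, QAG404, QAG432 and QAG452 held an Ikzf2 UMI, so the size of its term is not read. For Icos, the members stood at 3.48 to 5.62 in isotype and 0.525 to 10.7 in B20 tumors, and other Cd4+ cells at 1.17 to 6.30 and 0.457 to 1.65. When a Cd4 UMI was not required of the other cells, the term of Icos was -0.02. The isotype side of these comparisons rests on 3 or 4 members per tumor.

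Within the members, a pair of genes picked after the values were seen differed in detection between tumors. A UMI of Il1rl1 (the IL-33 receptor ST2) or Klrg1, markers of tissue-resident effector regulatory cells, was found in 4 of 31 members of QAG357 and in none of the 10 of QAG359 or the 15 of QAG365. Elsewhere it was found in 19 of 32 members. After thinning to 1000 UMIs, the pair was detected in 1.79% of members in the T cell-rich tumors and in 28.1% in the others. Of other Cd4+ cells, 6 of 743 held either gene. In Cd3-negative keratin-high cells, Il1rl1 was detected in 0.0519% and Klrg1 in 0.0370%.

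Members with Il1rl1 or Klrg1 were seen under both treatments. In isotype tumors 10 of 15 members held either gene. In QAG373, a B20 tumor with few T cells, 4 of 8 did. Summed over the list of tissue residence and effector homing genes, the members were at 5.38 to 14.0 UMIs per 10000 in the T cell-rich tumors and at 17.4 to 72.7 in the other 10 tumors with members. Over the naive list they were at 17.7 to 45.0 and at 4.86 to 26.8, which overlapped. The T cell-rich tumors were picked for their Cd3+ share and 3 is too few for a test, so these values are a description.

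Cells with Mki67 or Top2a, genes of dividing cells, made up 14 of 88 members and 28 of 743 other Cd4+ cells. QAG373 held 5 of the 14 among its 8 members, QAG357 held 2, and each other tumor held at most 1. The members with these transcripts had a median of 6393.5 UMIs, against 3158 in the remaining members. After thinning to 1000 UMIs the counts were 2 of 56 members and 7 of 633 other Cd4+ cells in the T cell-rich tumors, and 6 of 32 and 6 of 110 in the others. Depth moved with the detection of these genes.

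**Figure D5:**
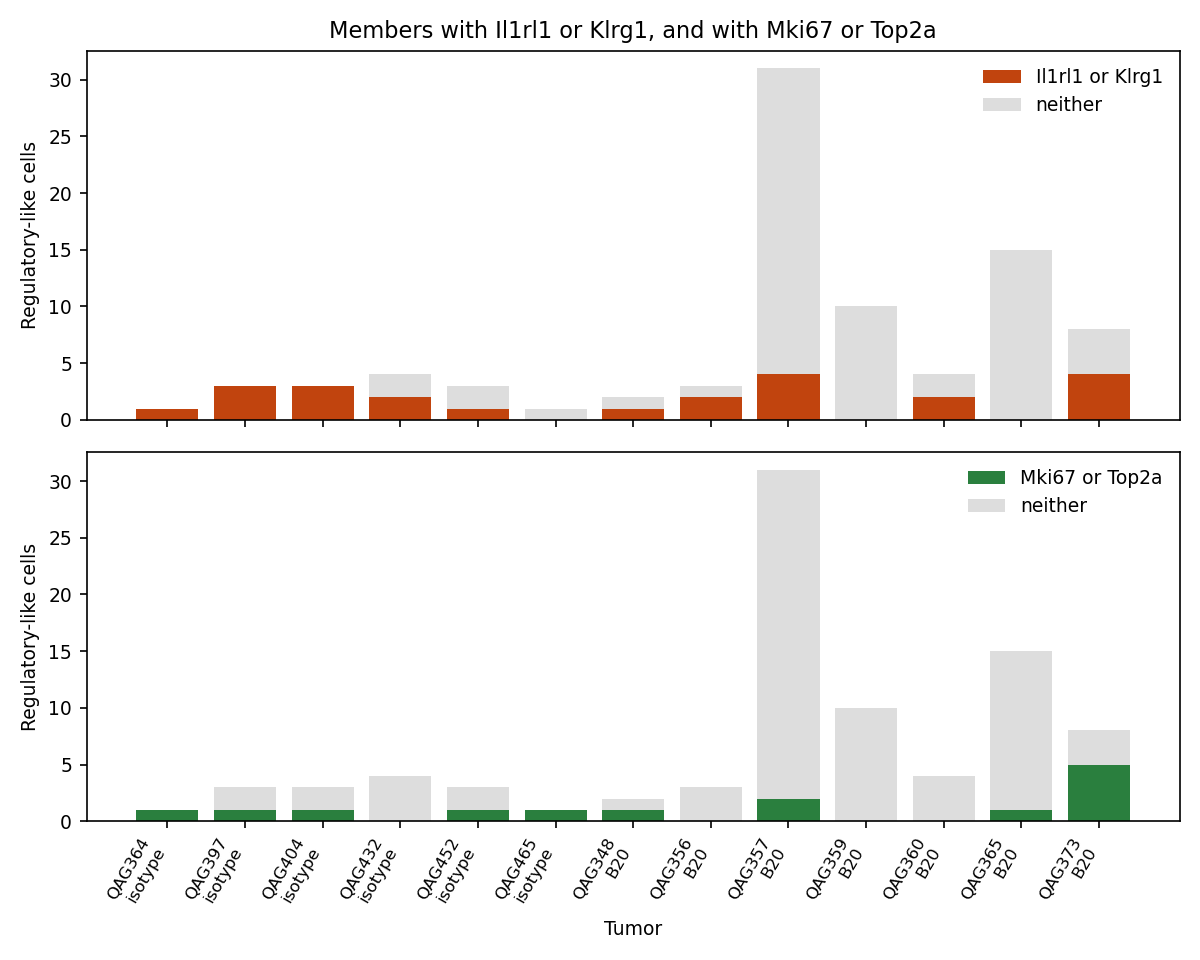
Number of regulatory-like cells in each of the 13 tumors with members, split by UMIs of Il1rl1 or Klrg1 (top) and by UMIs of Mki67 or Top2a (bottom). Il1rl1 or Klrg1 is found in 4 of 56 members of QAG357, QAG359 and QAG365 and in 19 of the 32 members elsewhere, and 5 of 8 members of QAG373 carry Mki67 or Top2a.

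Further genes of regulatory effector function were too sparse for the tests and are given as counts of cells with a UMI, chosen after their values were seen. Because 633 of the 743 other Cd4+ cells lie in the T cell-rich tumors, the counts are split. Tnfrsf9, the receptor 4-1BB, was detected in 5 of 56 members and 8 of 633 other Cd4+ cells of the T cell-rich tumors, and in 17 of 32 and 7 of 110 elsewhere. Ccr2, a chemokine receptor, was detected in 4 and 12 cells of the T cell-rich tumors and in 21 and 14 elsewhere. Pdcd1, the receptor PD-1, was detected in 4 and 7 and in 11 and 6. For these 3 genes the members held the larger share in both sets of tumors, and the share in Cd3-negative keratin-high cells, which are deeper (median 8346.5 UMIs against 3337), was 0.541% for Tnfrsf9, 0.808% for Ccr2 and 0.0889% for Pdcd1.

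Thinned to 1000 UMIs, Tnfrsf9 was found in 2 of 56 members and 2 of 633 other Cd4+ cells of the T cell-rich tumors and in 8 of 32 and 4 of 110 elsewhere. Thinned Ccr2 was found in 2 and 2 and in 10 and 6, and thinned Pdcd1 in 1 and 0 and in 5 and 3. Most of the thinned detections of these genes in members thus lay outside the T cell-rich tumors.

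For 5 other effector genes the share in the deeper keratin-high cells was higher than for Tnfrsf9, Ccr2 and Pdcd1. It was still below the share in the members before thinning. Nt5e, the ectoenzyme that makes adenosine, was detected in 22 of 88 members and 4.03% of keratin-high cells, and after thinning in 8 of 88 members and 18 of 743 other Cd4+ cells. Entpd1, the ectoenzyme upstream of it, was in 12 members (3.21% of keratin-high cells) and in 5 after thinning. Lrrc32, which docks latent TGF-beta, was in 8 members (9.09%) and 6.56% of keratin-high cells, and Gzmb, a cytotoxic protease, in 6 members (6.82%) and 3.24% of keratin-high cells. Areg, a repair factor, was in 7 members and 1.76% of keratin-high cells, and in 2 members after thinning. Before thinning, the other Cd4+ cells with a UMI were 46 of 743 for Nt5e, 14 for Entpd1, 1 for Lrrc32, 3 for Areg and 26 for Gzmb. These genes were not tested, and no difference is read from these 5 genes.

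Prf1, the pore-forming protein of cytotoxic cells, was found in 0 members, which allows up to 3.41% of members with a UMI, and in 51 of 743 other Cd4+ cells, 49 of them in the T cell-rich tumors. The helper cytokines Il17a, Il4 and Il21 had no UMI in either class.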

How the data were processed

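Cells sorted from 15 tumors were measured by droplet RNA sequencing with multiplexing oligonucleotides. The authors made the UMI counts with Cell Ranger 6.1.2 (per the file headers) on mm10 (per the labels), and the deposited values are raw counts of 31053 genes and 12 multiplexing features, without normalization. Tools listed in the submitters' processing notes were bcl2fastq and Seurat 4.3.0.

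From these counts, members were gated as described, counts were summed per tumor and class, and tested in R 4.3.3 with edgeR 4.0.16 (TMM, filterByExpr, quasi-likelihood, Benjamini-Hochberg). The tumor was the replicate, and the labels name 1 mouse for each. Alternatives used DESeq2 1.42.0, limma 3.58.1 and other filters. Shares were compared in Python 3.11.15 (scipy 1.17.1) by exact 2-sided permutation. Gene positions came from the GENCODE annotation of GRCm38, which mm10 also names. The fits were also run on simulated counts with the same spread parameter for all genes and no effect of tumor or pool. Real counts need not follow that setting, so the run does not show how the fits perform on them.

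The members and gene lists were chosen with earlier results of these data known. Named genes were the first 3 of every list, list members that passed, up to 10 per direction with the largest change (adjusted p under 0.05, average log2 CPM at least 5, leaving out ribosomal, mitochondrial and receptor segments), and the 5 smallest p where fewer than 5 passed. The treatment comparisons were planned with at least 10 cells per tumor and run with at least 3, a limit chosen after the counts were seen. The values of 1 gene of the naive list, which its counts include, are not reported here.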

Additional observations from a re-analysis of the deposited data

Results flagged for a closer look

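In 22 groups of 4 to 10 tumors, 2 held a tumor far from the others, and about 1 in 20 groups would by chance. QAG373 held regulatory-like cells at 8.00% of Cd3+ cells, where the nearest of the 9 B20 tumors was QAG357 at 2.52%. Among the 6 B20 tumors with at least 3 members, mt-Nd1 in the members was at 13.4 UMIs per 10000 in QAG359, and the nearest was QAG365 at 8.61.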

How the results depend on the processing

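The 145 genes that differed between regulatory-like and other Cd4+ cells became 96 with at least 2500 UMIs per cell, 61 after thinning to 1000 UMIs, 46 with DESeq2, 53 with at least 5 cells per tumor, 73 with at least 3, and 73 to 119 when a tumor or pool was left out (73 without QAG357, 95 without QAG365). For the cell limits of 3 and 5, fewer genes could be tested (309 and 1008). Of 36 named genes that passed, DESeq2 kept 22, the 2500 UMI minimum kept 24, and leaving out QAG357 kept 21 of the 35 it could test. The 10-tumor fit called 73 genes, 17 after thinning, 222 without the filter on low counts, 179 without requiring Cd4 of the other cells and 46 to 92 with a tumor or pool left out (46 without B20 pool 2, 47 without isotype pool 1). The treatment comparison called 5 genes without that filter (Bcl2, Plac8, Clec2d, Top2a and Ccr7, named after their values were seen) and 0 in each fit with a tumor or pool left out. The class by treatment term called 2 without the filter, 1 without the T cell-rich tumors, 3 without requiring Cd4 and 0 to 1 with a tumor or pool left out.

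The difference in shares ranged from 0.328 to 0.734 points of all cells and from 0.211 to 1.21 points of Cd3+ cells with a tumor or pool left out. Directions turned for Trac (0.024 with at least 3 cells per tumor), Eef1a1 (0.047 after thinning, 10 tumors) and Maf (-0.52 to 2.40 with a tumor left out). The cause was not tested. No paired analysis was possible because replicate numbers name pools, which hold different tumors and are not tied across treatments. Requiring Foxp3, at least 20 cells, or tumors other than the T cell-rich 3 left too few tumors for the 3-tumor comparison, and the treatment comparisons with at least 10 cells were not run. Depth limits all of these, with 15 members in isotype tumors.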
